A study of Mus musculus with 17 samples.

Results

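The de novo lipogenesis genes are the 10 genes Srebf1, Mlxipl, Thrsp, Acly, Acaca, Acacb, Me1, Fasn, Elovl6 and Scd1, taken by gene symbol from the high-fat diet (HFD) table of 19151 genes and the Western diet (WD) table of 24233 genes. All 10 had a row in both tables and all 10 passed the filter on low counts. RNA-seq was performed on 17 male mouse samples in the C57BL6 background after 16 weeks of diet: 4 WT and 4 N-LKO livers on HFD, and 3 WT livers, 3 N-LKO livers and 3 tumors of N-LKO mice on WD, which is high in fat and cholesterol. N-LKO stands for knockout of NgBR in the liver. All mice were kept on chow before the diets and were matched by age and sex. N-LKO mice are NgBR loxP/loxP with albumin-Cre, which is active in hepatocytes, so the other cells of the liver keep the gene. NgBR is encoded by Nus1 and is a subunit of cis-prenyltransferase, the enzyme that makes the lipid carrier used in protein glycosylation.

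De novo lipogenesis turns acetyl-CoA made from sugar into fatty acids, and in liver it is known for responding to insulin, to carbohydrate and to the oxysterol receptor LXR. SREBP-1c (from Srebf1) and ChREBP (from Mlxipl) switch the enzymes on, and LXR acts in large part through Srebf1. ATP citrate lyase (Acly) makes cytosolic acetyl-CoA, the carboxylases (Acaca, Acacb) make malonyl-CoA, malic enzyme (Me1) supplies NADPH, fatty acid synthase (Fasn) builds palmitate, and Elovl6 and Scd1 lengthen and desaturate it. The study asked whether LXR-driven lipogenesis is altered in livers without NgBR. The comparisons are of N-LKO with WT liver on each diet, and of tumor with both WD liver groups.

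Sequence before the listed transcription starts was available for 9 of the 10 genes, in 13 windows of 250 bases from RefSeq on GRCm38.p6, because some genes have several starts. Fasn and Elovl6 are shown because edgeR called both higher in tumor than in WT liver, though neither against N-LKO liver. Srebf1 is shown because it encodes the regulator. The Elovl6 window stops at the first annotated exon. The Srebf1 window lies in an intron, before the innermost of its 3 listed starts. Capitals mark the searched letters, on either strand: the NF-Y box CCAAT and the Sp1 box GGGCGG.
Fasn, chr11:120824548-120824797, minus strand: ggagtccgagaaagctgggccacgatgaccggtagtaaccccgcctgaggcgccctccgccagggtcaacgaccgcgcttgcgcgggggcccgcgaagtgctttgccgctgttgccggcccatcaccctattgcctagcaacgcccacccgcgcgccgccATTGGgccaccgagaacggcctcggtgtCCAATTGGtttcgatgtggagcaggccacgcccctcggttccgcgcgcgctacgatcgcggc
Elovl6, chr3:129532136-129532354, plus strand: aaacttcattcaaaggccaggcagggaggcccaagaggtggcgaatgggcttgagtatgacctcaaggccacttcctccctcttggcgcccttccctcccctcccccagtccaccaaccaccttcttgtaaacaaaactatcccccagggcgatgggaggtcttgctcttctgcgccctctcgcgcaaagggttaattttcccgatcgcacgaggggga
Srebf1, chr11:60210472-60210721, minus strand: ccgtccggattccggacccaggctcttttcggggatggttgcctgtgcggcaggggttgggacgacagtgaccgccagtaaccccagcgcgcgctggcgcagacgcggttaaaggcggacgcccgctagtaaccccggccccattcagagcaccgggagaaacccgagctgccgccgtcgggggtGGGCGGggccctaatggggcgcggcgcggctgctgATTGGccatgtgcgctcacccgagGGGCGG

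The Fasn window held 3 NF-Y boxes, 2 of which overlap in one stretch read on both strands, and the Elovl6 window held none of the searched motifs. Over the 13 windows of the lipogenesis genes, 7 held an NF-Y box, against 33.8% of all 32851 windows of this length, and 5 held an Sp1 box, against 32.7%. The E-box CACGTG was in 1 of the 13 (6.02% of all windows), before Mlxipl. The SREBP site TCACNCCAC was also in 1 of the 13 (1.05% of all), in the second Mlxipl window. The variant CACCCCAC (2.58% of all), the exact paired E-boxes of a carbohydrate response element (0%) and the exact LXR direct repeat (0.0152%) were in none of the 13, which says only that these letters are not in these windows. The windows listed for Acaca and Acacb lie inside those genes, directly before internal exons, and are not printed. Counts here are per gene and do not separate transcripts from different starts of Srebf1, Mlxipl or Me1.

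The libraries held 9096110 to 12215800 counts on HFD and 15494700 to 20200600 on WD. Levels are given as CPM, counts scaled to library size after TMM normalization. The lowest count of a lipogenesis gene in any library was 72, for Thrsp. Nus1 was measured first as a check of the labels, and it was lower in all 10 libraries of N-LKO liver or tumor than in any WT liver of the same table. On HFD it was 88.2 ± 5.90 CPM in WT (SD, n = 4) and 35.1 ± 3.99 in N-LKO (SD, n = 4). On WD it was 94.5 ± 5.57 in WT, 46.7 ± 4.75 in N-LKO liver and 35.8 ± 7.59 in tumor (SD, n = 3 each). WT liver WD replicate 2 stood apart in its scaling factor, 0.806 against 0.941 to 1.15 in the other WD libraries. Because the tissue was bulk, fewer cells of a type and less RNA per cell cannot be told apart. The labels call the samples biological replicates.

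Expressed per kilobase of the longest annotated transcript, the order of levels in WT liver on HFD was led by Scd1, at 903 ± 712 CPM per kb (SD, n = 4). Me1 (42.1 ± 6.15), Thrsp (36.7 ± 39.4) and Mlxipl (33.4 ± 4.83) followed and overlapped in their spread, then Acly at 15.6 ± 1.45. Srebf1 (7.70 ± 2.86), Fasn (6.74 ± 0.284) and Elovl6 (5.51 ± 1.05) formed a further overlapping set. Acaca (3.46 ± 0.629) and Acacb (1.97 ± 0.421) were the lowest. On WD the WT order again began with Scd1, at 4389 ± 999 CPM per kb (SD, n = 3), and Elovl6, Acaca, Acacb and Fasn lay together between 8.29 and 12.8. The diets were counted in separate tables, so levels were not tested between them.

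On HFD, loss of NgBR was accompanied by no called change among the lipogenesis genes. None of the 10 passed an adjusted p of 0.05 in edgeR's quasi-likelihood test, where 4.84% of all genes tested did, and DESeq2 and limma-voom also called 0. At an unadjusted p under 0.05, 1 was higher (Me1) and 2 were lower (Fasn, Mlxipl), where 22.7% of all genes were under it. The median log2 fold change of the 10 was 0.11, against -0.01 over all genes. Values of each library are shown in the plot of HFD levels.

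**Figure D1:**
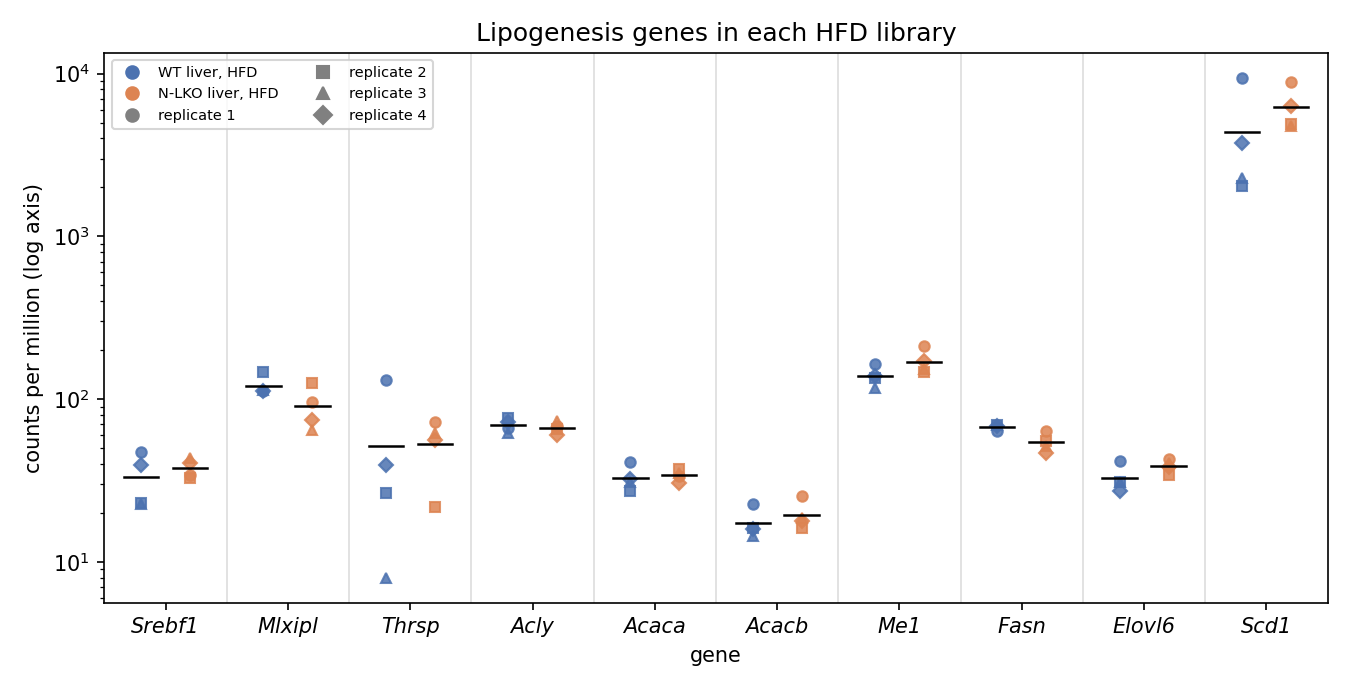
CPM of the 10 lipogenesis genes (x axis) in each HFD library on a log axis, with WT liver in blue, N-LKO liver in orange, a marker shape per replicate and a black line at the group mean. Fasn is the gene whose groups do not overlap, and Thrsp and Scd1 have the widest WT spread, from 8.01 to 132 and from 2036 to 9403 CPM.

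Fasn, the synthase itself, came nearest to a change. It read 63.7, 69.6, 69.8 and 67.9 CPM in WT replicates 1 to 4 and 63.5, 55.3, 51.8 and 46.7 in N-LKO replicates 1 to 4. The groups did not overlap, although N-LKO replicate 1 lay just under WT replicate 1. The log2 fold change was -0.32 (SE 0.097, adjusted p = 0.0801 by edgeR). Fasn was the only 1 of the 10 whose groups did not overlap, with N-LKO lower. Of all genes 14.8% did not overlap in either direction, and 7.39% had all N-LKO libraries above WT, the direction opposite to Fasn. On this diet the fold change fell with transcript length over all genes (Spearman rho -0.35 across genes), and the longest Fasn transcript has 10050 bases. With an offset for length and GC content the value of Fasn was -0.12 (adjusted p = 0.589).

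None of the regulators was called. Srebf1 ranged from 22.6 to 47.2 CPM in WT and from 32.7 to 43.3 in N-LKO, and its log2 fold change was 0.18 (SE 0.22, 95% interval -0.29 to 0.66). Mlxipl, which encodes ChREBP, was 112, 147, 113 and 112 CPM in WT and 96.3, 125.8, 64.8 and 74.4 in N-LKO. Its value of -0.42 (SE 0.18) had an adjusted p of 0.189 by edgeR, and the groups overlapped through N-LKO replicate 2, without which it was -0.62 (adjusted p = 0.0408). Thrsp, a small nuclear protein that follows lipogenic activity, had the least precise value, 0.04 with a 95% interval of -1.30 to 1.37.

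Enzymes that supply the pathway were close between genotypes. Acly differed by -0.06 on the log2 scale (95% interval -0.26 to 0.14) and Acaca by 0.05 (-0.22 to 0.32), so 2-fold differences of either lie outside these intervals. Acacb, the mitochondrial carboxylase whose malonyl-CoA restrains fatty acid oxidation, differed by 0.17 (-0.20 to 0.54). The longest transcripts of Acaca and Acacb have 9513 and 8788 bases, so the trend with length on this diet bears on both. Over the alternatives, Acaca ran from 0.05 to 0.24 and Acacb from 0.17 to 0.35. Me1 was 0.30 higher (SE 0.13, adjusted p = 0.210), with 117 to 165 CPM in WT and 146 to 211 in N-LKO.

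Downstream of Fasn, Elovl6 read 27.3 to 41.8 CPM in WT and 34.1 to 42.9 in N-LKO, with a log2 fold change of 0.25 (SE 0.13, adjusted p = 0.274). Scd1, which makes oleate from stearate, was 9403, 2036, 2284 and 3725 CPM in WT replicates 1 to 4 and 8875, 4907, 4781 and 6357 in N-LKO replicates 1 to 4. WT replicate 1 was above every N-LKO library while the other WT libraries were below them all. The log2 fold change was 0.51 (SE 0.42, adjusted p = 0.496), and 1.21 (adjusted p = 0.0297) without WT replicate 1. That library was also the highest of the whole HFD table for 4 of the 10 genes, and the highest WT library for 7.

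On WD no lipogenesis gene separated the livers by the test either. edgeR called none of the 10, and also called 0% of all 17829 genes, with 2212 of them (12.4%) and 1 of the 10 (Elovl6) at an unadjusted p under 0.05. Of the 10 genes DESeq2 and limma-voom called 0 as well, and of all genes they called 99 and 0. Nus1 itself was at -1.02 (SE 0.16) with an adjusted p of 0.151 here, although its groups did not overlap.

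Elovl6, which lengthens palmitate to stearate, was 62.5, 41.2 and 44.4 CPM in WT and 71.2, 62.5 and 91.5 in N-LKO. N-LKO was higher in all 3 libraries, with nearly equal values of WT replicate 1 and N-LKO replicate 2. The log2 fold change was 0.60 (SE 0.24, 95% interval 0.07 to 1.14, adjusted p = 0.382). It was 1 of the 10 genes with groups that did not overlap, against 27.9% of all genes in either direction and 14.3% with N-LKO above WT.

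Acaca, the cytosolic carboxylase of the pathway, was 103, 65.1 and 78.9 CPM in WT and 123, 84.0 and 124 in N-LKO (log2 fold change 0.42, SE 0.20, adjusted p = 0.421). Fasn (0.34, 95% interval -0.59 to 1.28), Srebf1 (-0.43, -1.51 to 0.66) and Acacb (-0.35, -1.02 to 0.31) had intervals that reach past a 2-fold change in 1 direction, as did Elovl6. Scd1 was at 15941 to 25423 CPM in WT and 18575 to 22500 in N-LKO, a log2 fold change of -0.01 (-0.91 to 0.89). Acly was at -0.26 (-0.69 to 0.16), Mlxipl at -0.12 (-0.59 to 0.35) and Me1 at -0.02 (-0.41 to 0.37). Thrsp (0.18) had an interval from -1.93 to 2.28, past a 2-fold change in both directions.

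The genotype difference was also compared between the diets in 1 fit over the 14 livers. None of the 10 passed, where 1.62% of all genes did by edgeR, and none had an unadjusted p under 0.05, where 20% of all genes did. DESeq2 and limma-voom called 0 of the 10. Fasn came nearest, at 0.68 more on WD than on HFD (SE 0.32, adjusted p = 0.252). Over all genes this difference rose with transcript length (Spearman rho 0.34 across genes), and Fasn has a long transcript. Its value ran from 0.47 to 0.72 over the alternatives.

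All calls among the lipogenesis genes were in tumor tissue. Against WT liver on WD, Acaca, Fasn and Elovl6 rose and Acacb fell, 4 of the 10 where 14.9% of all genes passed. At an unadjusted p under 0.05, 5 of the 10 were higher and 2 lower, where 32.5% of all genes were under it. The median log2 fold change of the 10 was 0.52, against 0.04 over all genes. This comparison joins the knockout with the tumor state, and the comparison with N-LKO liver holds the genotype constant but called 0 of the 10 by edgeR and limma-voom, where edgeR called 0.499% of all genes. DESeq2 called 3 (Acly, Acaca and Fasn, all higher), where it called 5.73% of all genes. At an unadjusted p under 0.05, 4 of the 10 were higher and 2 lower than in N-LKO liver, where 18.3% of all genes were under it. The 2 comparisons share the tumor libraries, so their values are given side by side.

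**Figure D2:**
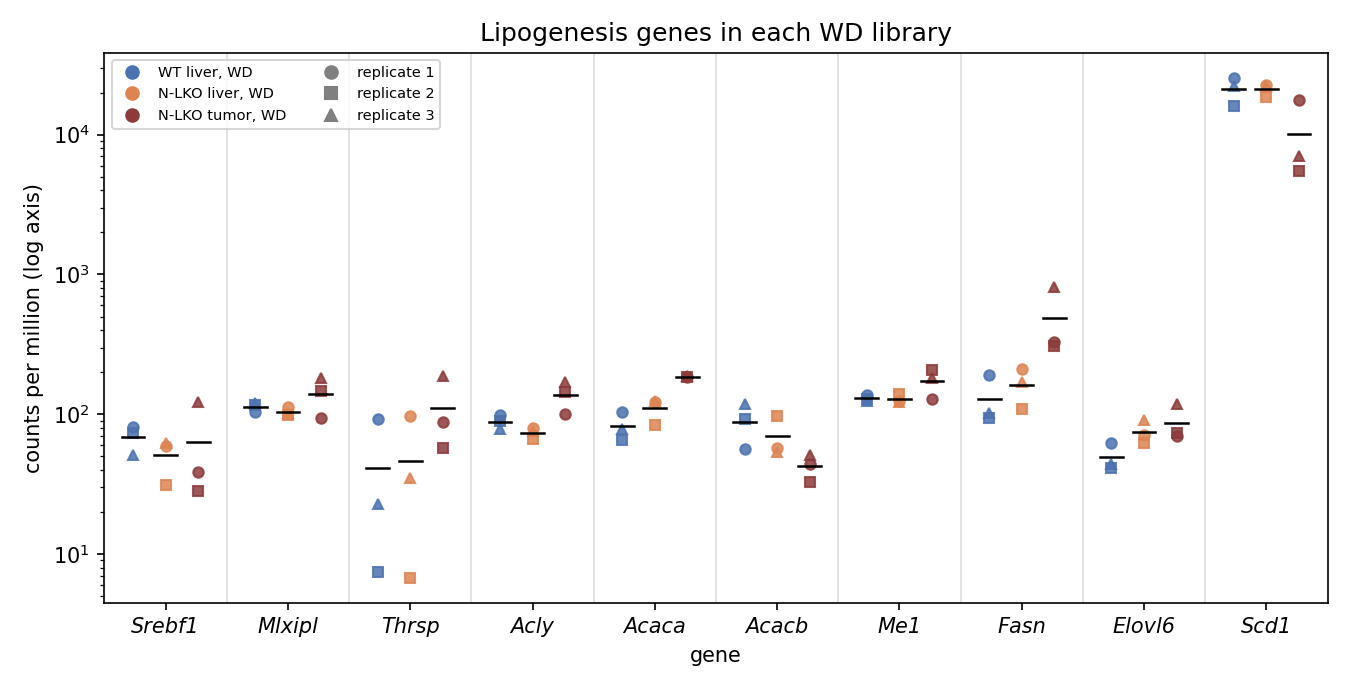
CPM of the 10 lipogenesis genes (x axis) in each WD library on a log axis, with WT liver in blue, N-LKO liver in orange, N-LKO tumor in dark red, a marker shape per replicate and a black line at the group mean. The 3 tumors sit above all 6 livers for Fasn, Acaca and Acly and below them all for Acacb.

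Fasn showed the largest called change. It was 190.5, 93.7 and 101 CPM in WT liver, 210.1, 109 and 171 in N-LKO liver and 328, 308 and 819 in tumor. Every tumor lay above every liver, and tumor 3 was more than 2-fold above the other 2 tumors. Fasn rose 3.77-fold over WT liver (log2 1.92, SE 0.43, adjusted p = 0.0205) and was 2.97-fold over N-LKO liver (log2 1.57, SE 0.43, adjusted p = 0.109). Without tumor 3 the value against WT liver was 1.30 (adjusted p = 0.0404). The call was lost without WT replicate 2 (1.73, adjusted p = 0.0847), without WT replicate 3 (1.77, adjusted p = 0.0626) and when only the 2 groups were fitted (1.90, adjusted p = 0.0547).

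Acaca, which makes the malonyl-CoA that Fasn consumes, was 183.8, 183.8 and 186.9 CPM in the 3 tumors. The livers ranged from 65.1 to 103 in WT and from 84.0 to 124 in N-LKO, so the tumors were above all of them with less spread than any liver group. Acaca rose 2.24-fold over WT liver (log2 1.16, SE 0.20, adjusted p = 0.0102), a call that held in all 9 alternatives and in all 9 fits that left out 1 library. Against N-LKO liver it was at 0.74 (SE 0.20, adjusted p = 0.105). Its estimated counts were fractional in every library, so some of its reads were shared with other features.

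Acacb, the second carboxylase, went the other way. It was 56.4, 91.8 and 118 CPM in WT liver, 57.3, 96.9 and 54.1 in N-LKO liver and 44.2, 33.0 and 50.8 in tumor. All 3 tumors lay below all 6 livers. Acacb fell by 1.06 on the log2 scale against WT liver (SE 0.30, adjusted p = 0.0432) and was at -0.70 against N-LKO liver (SE 0.30, adjusted p = 0.252). The call against WT liver held in 5 of 9 alternatives and was lost in 7 of the 9 fits without 1 library, with values from -1.31 to -0.80.

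The ratio of Acaca to Acacb within a library, per kb, is free of scaling between libraries and was added after the values were seen, so it carries no test. It was 3.84, 5.15 and 3.40 in the tumors. It was 1.69, 0.655 and 0.617 in WT liver on WD and 1.98, 0.801 and 2.12 in N-LKO liver on WD. The tumors thus read above every other library, the HFD livers included, which ran from 1.23 to 2.13.

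**Figure D3:**
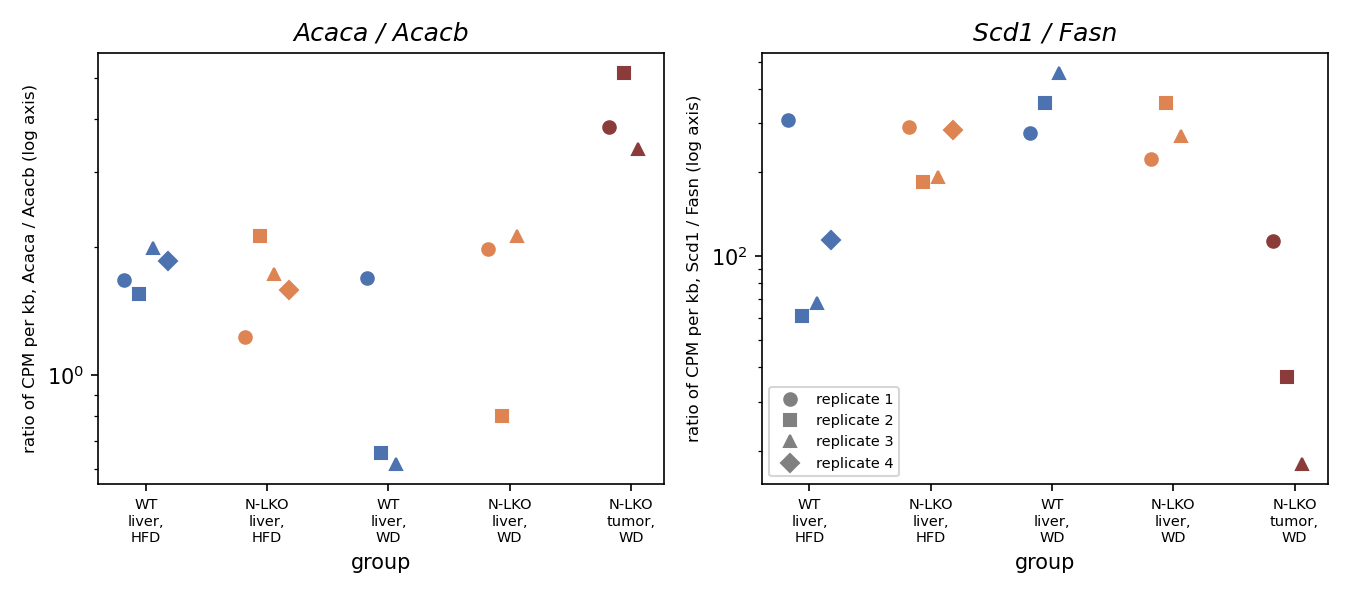
Ratio of CPM per kb within each library for Acaca over Acacb (left) and Scd1 over Fasn (right), on log axes, by group, with a marker shape per replicate. The 3 tumors are the highest of the 17 libraries on the left, at 3.40 to 5.15, and lie below all 6 WD livers on the right, at 17.9 to 113, where WT livers on HFD reach down to 60.9.

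Elovl6 and Scd1, which act on the product of Fasn, parted. Elovl6 was 70.2, 73.6 and 118 CPM in tumor, against 41.2 to 62.5 in WT and 62.5 to 91.5 in N-LKO liver. All 3 tumors were above WT liver, while tumors 1 and 2 were inside the N-LKO range and tumor 3 above it. It rose against WT liver (log2 0.82, SE 0.24, adjusted p = 0.0478) and was at 0.22 against N-LKO liver (SE 0.24, adjusted p = 0.674). That call was the least stable, since it held in 3 of 9 alternatives and in 1 of the 9 fits without 1 library. It was lost without each WD library but tumor 1, with values from 0.54 to 1.02. An antisense gene overlaps the first exon of Elovl6, and reads of the pair cannot be told apart without strand.

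Scd1 was 17792, 5452 and 7042 CPM in the tumors, against 15941 to 25423 in WT and 18575 to 22500 in N-LKO liver. Tumors 2 and 3 were far below every liver while tumor 1 was within the WT range. The log2 fold change was -1.07 against WT liver (SE 0.41, adjusted p = 0.102) and -1.06 against N-LKO liver (SE 0.41, adjusted p = 0.212), and without tumor 1 these were -1.77 (adjusted p = 0.0047) and -1.76 (adjusted p = 0.0073). The ratio of Scd1 to Fasn was 113, 36.8 and 17.9 in the tumors and 223 to 456 in the 6 WD livers, also given without a test. On HFD it was 307, 60.9, 68.0 and 114.1 in WT liver and 184.6 to 290.5 in N-LKO liver, so WT replicates 2 and 3 on HFD lay within the range of the tumors and replicate 4 just above it.

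Acly was 100.3, 143 and 170.0 CPM in tumor, 78.1 to 99.0 in WT and 66.6 to 79.5 in N-LKO liver. The tumors were above all livers, but the values just missed the threshold, at 0.64 against WT (SE 0.19, adjusted p = 0.0501) and 0.90 against N-LKO liver (SE 0.19, adjusted p = 0.0743). Me1 was at 0.40 and 0.42 in the same comparisons (adjusted p = 0.140 and 0.236), with tumor 1 at 127.9 CPM inside the range of the livers and tumors 2 and 3 above it. Without tumor 1 both genes and Mlxipl were called higher in both comparisons, among 7 of the 10 called against WT liver and 5 against N-LKO liver. Calls over all genes then also rose, to 20.9% and 12%.

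The regulators were not called in tumors. Srebf1 was 38.4, 28.1 and 122 CPM in tumor and 51.3 to 80.8 in WT and 30.997 to 62.3 in N-LKO liver. Tumor 1 lay within the range of the 6 livers, tumor 2 below it and tumor 3 above it. Its log2 fold change was -0.12 against WT (SE 0.49) and 0.31 against N-LKO liver (SE 0.49), and without tumor 3 these were -1.04 (adjusted p = 0.0621) and -0.62 (adjusted p = 0.375). Mlxipl was 93.7, 146 and 182 CPM in tumor and 98.1 to 121 over the livers, with tumor 1 below them all and tumors 2 and 3 above. Its values were 0.31 (SE 0.21) and 0.43 (SE 0.21). Thrsp was 88.1, 57.3 and 187.1 CPM in tumor, within or above livers that ran from 6.79 to 97.5, at 1.43 (SE 0.96) and 1.25 (SE 0.95).

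In all, 5 of the 10 genes had tumors that did not overlap WT liver, 4 of them higher, against 34.1% of all genes in either direction and 17.7% higher. Against N-LKO liver 5 of the 10 did not overlap, 3 of them higher, against 23.1% and 11.5%. The plot of fitted changes sets the 4 comparisons next to each other.

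**Figure D4:**
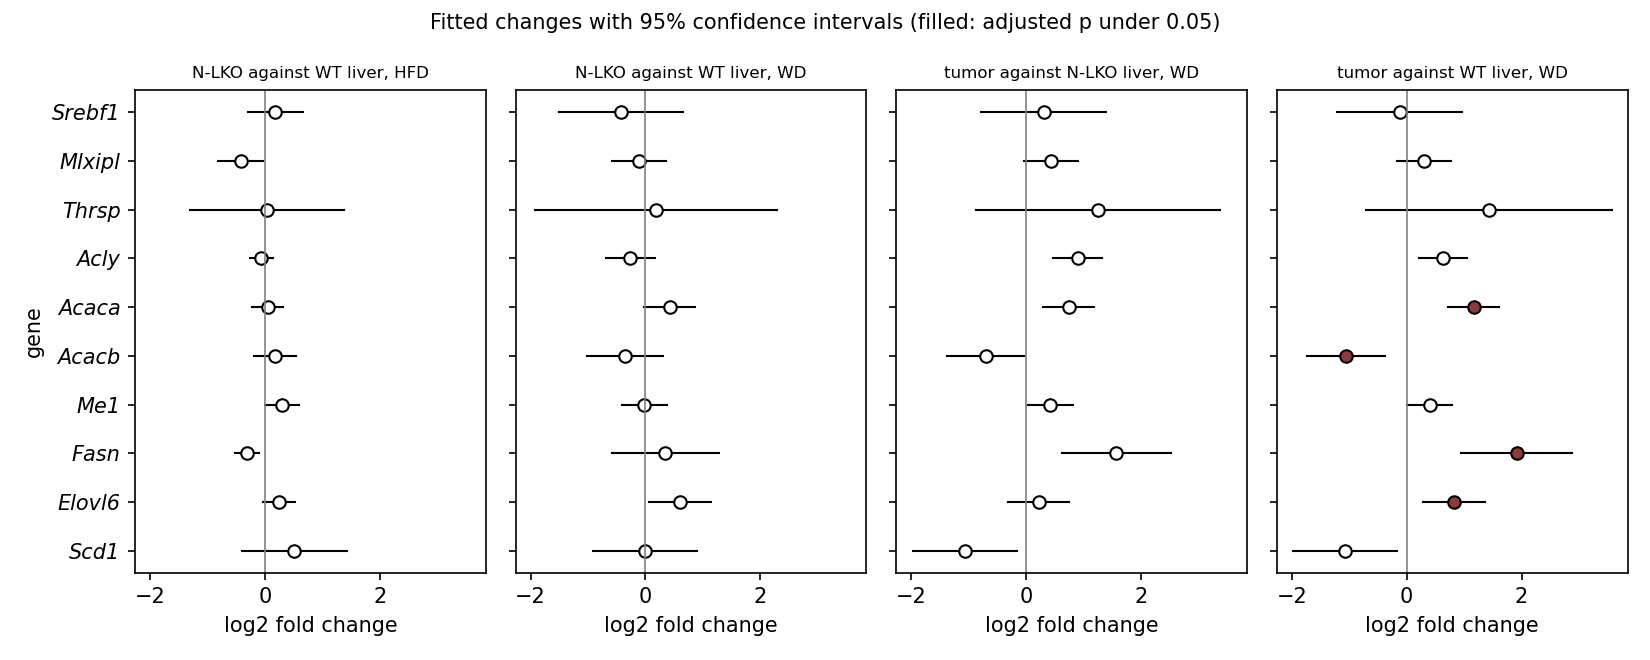
Log2 fold change (x axis) of each lipogenesis gene (y axis) with its 95% interval in 4 comparisons, filled where the adjusted p by edgeR was under 0.05. The filled points are Acaca (1.16), Fasn (1.92), Elovl6 (0.82) and Acacb (-1.06), all in tumor against WT liver.

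The rest of the pathway, 50 of 52 listed genes tested, is described by role. Against WT liver 2 rose and 12 fell, with a median of -0.08. Over all genes 14.9% were called in this comparison, 1440 higher and 1213 lower, which is the share to set beside each role below. By role, 2 of 12 genes of sugar, citrate and NADPH supply rose. Ketohexokinase (Khk), which starts fructose use, rose by 1.03 on the log2 scale (SE 0.30, adjusted p = 0.0479), from 85.8 to 113 CPM in WT to 109 to 301 in tumor with overlap. Pgd of the pentose phosphate path rose by 0.98 (SE 0.28, adjusted p = 0.0456). No gene of the rest of the pathway was called higher by limma-voom, with no filter, when only the 2 groups were fitted, or without tumor 2, WT replicate 2 or 3, or N-LKO replicate 2 or 3.

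Of 10 other genes of elongation and desaturation, 0 rose and 5 fell. Elovl3, an elongase of very long chains, fell from 45.4 to 103 CPM in WT liver to 1.87 to 14.8 in tumor (log2 -3.17, SE 0.73, adjusted p = 0.0216). The desaturases of polyunsaturated fatty acids Fads2 (-1.09, adjusted p = 0.0140) and Fads1 (-0.90, adjusted p = 0.0261) fell as well.

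Among 13 regulators 0 rose and 4 fell. They included Rxra, the nuclear receptor partner of LXR (-1.205, adjusted p = 0.00895), Scap, which escorts SREBP out of the endoplasmic reticulum (-0.94, adjusted p = 0.0181), and Nr1h3, which encodes LXR alpha (-0.56, adjusted p = 0.0228). Of 10 genes of triglyceride assembly 0 rose and 3 fell, namely the acyl-CoA synthetase Acsl1 (-1.29, adjusted p = 0.00782), the phosphatidate phosphatase Lpin2 (-0.87, adjusted p = 0.0158) and Dgat2, which makes triglyceride from diglyceride (-0.55, adjusted p = 0.0495). Of 5 other SREBP-1c and ChREBP targets tested, edgeR called 0, with 0 at an unadjusted p under 0.05, where 32.5% of all genes were under it.

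The pathway genes called against WT liver numbered 4 lower and 0 higher once WT replicate 2 was left out, where 3.07% of all genes were called. Against N-LKO liver 0 of the 50 were called by edgeR and limma-voom, where edgeR called 0.499% of all genes. DESeq2 called 8, 7 of them lower, where it called 5.73% of all genes. At an unadjusted p under 0.05, 7 were higher and 10 lower, where 18.3% of all genes were under it. Elovl3 was at -2.68 (adjusted p = 0.105) and Khk at 1.33 (adjusted p = 0.0825) there. Without tumor 1 edgeR called 4 higher and 5 lower, where it called 12% of all genes.

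Between genotypes on HFD 1 of the 50 was called, where 4.84% of all genes were. Txnip, a glucose-responsive ChREBP target, fell from 121 ± 23.8 CPM to 80.2 ± 11.3 (SD, n = 4 each). Its log2 fold change was -0.60 (SE 0.14, adjusted p = 0.0327 by edgeR). DESeq2 called 5 and limma-voom 1, where they called 8.22% and 4.55% of all genes. No pathway gene was called lower without N-LKO replicate 1, 2 or 4 or WT replicate 2 or 4. On WD 0 were called by edgeR, DESeq2 and limma-voom. At an unadjusted p under 0.05, 0 were higher and 9 lower, where 12.4% of all genes were under it. For the difference between diets 1 of the 50 was called, where 1.62% of all genes were. The genotype difference of Tecr, a reductase of fatty acid elongation, was 0.54 lower on WD than on HFD (SE 0.12, adjusted p = 0.0323 by edgeR). That call was lost with the length and GC offset, with the replicate block and in 10 of the 14 fits without 1 library.

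Other cell types and tissue states moved with the tumor comparison. Counts of called markers are to be set beside the shares over all genes. These were 14.9% for tumor against WT liver and 4.84% between genotypes on HFD. Of 8 hepatocyte markers 4 were lower in tumor than in WT liver, with summed levels of 36614 to 63294 CPM in tumor, 47141 to 57390 in WT and 33484 to 42996 in N-LKO liver. Tumor 3, the highest for 8 of the 10 lipogenesis genes among tumors, had the highest hepatocyte sum. Of 5 markers of dividing cells 3 were higher, with sums of 39.9 to 89.6 CPM in tumor, 5.83 to 20.2 in WT and 23.9 to 39.4 in N-LKO liver, and tumor 3 was the lowest tumor. Of 5 cholangiocyte markers 2 were higher (Sox9, Spp1), with sums of 195 to 523 CPM in tumor, 17.2 to 69.6 in WT and 115 to 151 in N-LKO liver.

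Macrophage marker sums were 179 to 456 CPM in tumor against 496 to 730 in WT, with 2 of 7 lower. Of 7 stellate cell markers 1 was lower and of 6 endothelial markers 2 were higher and 1 lower, and T and B cell sums did not exceed 8.80 CPM in any WD library, with 1 of 6 markers higher in tumor. Adipocytes also carry the lipogenesis enzymes. Of their listed markers, Adipoq and Plin1 were at 0 to 0.311 CPM in every WD library. The adipocyte sum was lower in tumors (14.8 to 16.9 CPM) than in WT liver (34.5 to 46.3). In that comparison 1 of 4 tested markers was higher (Slc2a4) and 1 lower (Cfd). Cidea read 17.9 to 27.9 CPM in WT liver and 0.469 to 12.1 in tumor. Slc2a4 read 0.0678 to 0.275 CPM in WT liver and 0.352 to 5.21 in tumor. Adrb3 read 0.895 to 2.61 CPM in WT liver and 0.955 to 10.8 in tumor, so the markers did not move together. Between genotypes on WD edgeR called 0 markers of any list. On HFD 3 of 7 macrophage markers were lower in N-LKO liver (sums of 64.0 to 132 CPM against 125 to 183 in WT), 1 of 6 endothelial markers was lower (Stab2) and 1 of 2 tested cholangiocyte markers was higher (Spp1), with 0 called of 8 hepatocyte, 7 stellate cell, 3 dividing cell and 3 adipocyte markers. The part of these cell types in the lipogenesis values was not tested.

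Fasting and clock genes were set beside the lipogenesis genes because both follow feeding, and neither the hour nor the feeding state at collection was given in the sources used here. Against WT liver, where 14.9% of all genes were called, tumors had lower Pck1 (-1.87, adjusted p = 0.0269) and Cpt1a (-0.72, adjusted p = 0.0236) among 7 fasting genes. Of 11 clock genes, Arntl (2.07, adjusted p = 0.00782) and Npas2 (3.00, adjusted p = 0.0121) were higher and Nr1d1 (-0.89, adjusted p = 0.0470) lower. In the livers none of either list was called between genotypes on HFD or WD by edgeR. At an unadjusted p under 0.05, 1 fasting gene was higher and 1 clock gene lower on HFD, and 2 clock genes were higher on WD. Over all genes 22.7% on HFD and 12.4% on WD were under that p. The genotype difference of Arntl was 1.83 higher on WD than on HFD (adjusted p = 0.0388 by edgeR), where 1.62% of all genes were called. The part of feeding or time of day was not tested.

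Within groups, single mice stood out across many of the 10 genes. On HFD, WT replicate 1 was highest in its group for 7 genes and had the lowest summed fasting genes of that group, 4985 against 5640 to 6403 CPM. WT replicate 3 was lowest for 5 genes, yet its fasting sum of 5640 was the next lowest. N-LKO replicate 1 was highest for 6 genes with the lowest fasting sum of its group (5214), and N-LKO replicate 2 was lowest for 5 with the highest (6605).

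On WD, WT replicate 1 was highest in its group for 8 genes. WT replicate 2 was lowest for 5, with a fasting sum of 11076 against 6170 and 6642. N-LKO replicate 2 was lowest for 8 with the lowest fasting sum of its group, 5603 against 5727 and 5859. Tumor 3 was highest for 8 with the highest fasting sum among tumors, 6485 against 4336 and 4580. No 1 order of the fasting sum therefore went with the lipogenesis genes in every group.

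**Figure D5:**
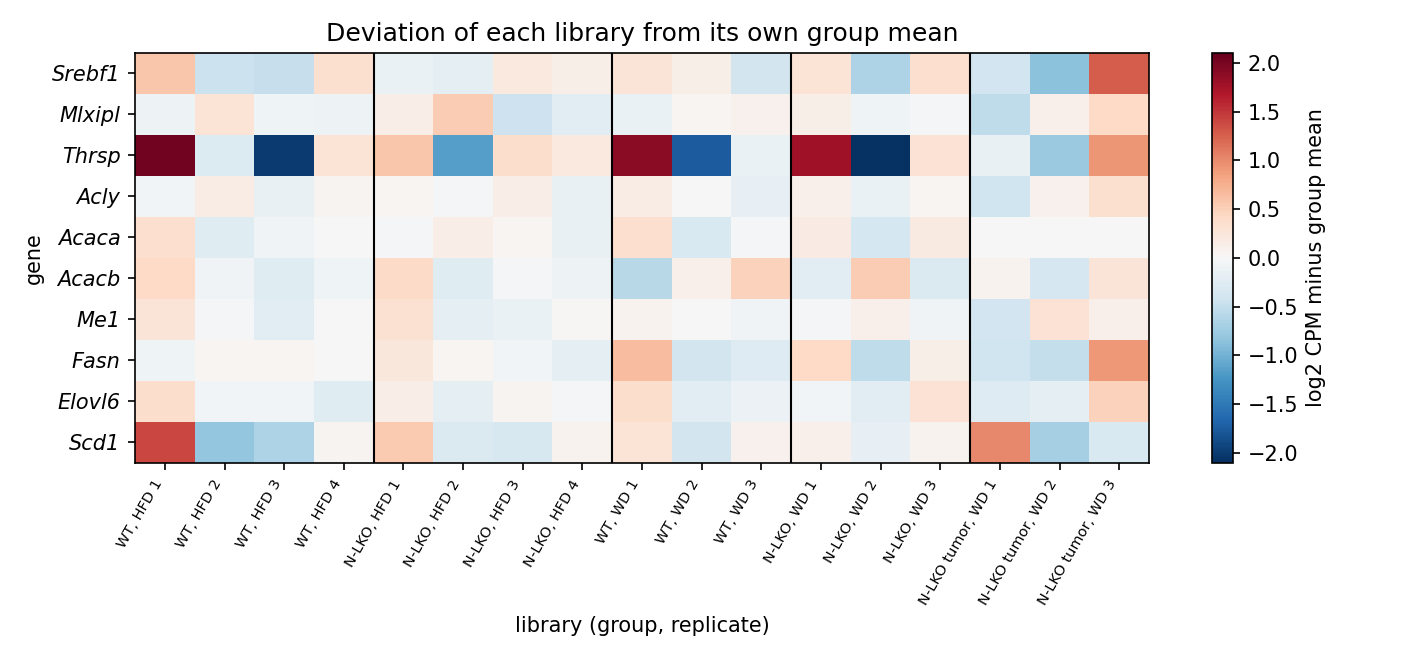
Log2 CPM of each lipogenesis gene (rows) in each of the 17 libraries (columns) minus the mean of the library's own group, red above and blue below. Thrsp shows the widest deviations, from -2.07 to 2.02, and tumor 3, WT 1 and N-LKO 2 on WD stand out as columns.

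Thrsp carried the widest spread, from 8.01 to 132 CPM in WT on HFD and from 6.79 to 97.5 in N-LKO liver on WD. After subtracting group means, the 45 pairs of genes had a median Pearson r of 0.28 over the 17 libraries, with 36 above 0. Thrsp with Acaca (0.75), Fasn with Elovl6 (0.74), and Srebf1 with Elovl6 (0.72) were the highest. The lowest were Scd1 with Mlxipl (-0.42) and with Acly (-0.41), and Acaca with Acacb (-0.37). The genes of a pair share library and depth, and these values are a description without a p.

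Not every gene tracked the rest over the 17 libraries, each gene centred within its own table. Thrsp (0.83), Elovl6 (0.70) and Acaca (0.62) had the highest Pearson r with the mean of the other 9 genes, while Mlxipl (0.04), Scd1 (-0.08) and Acacb (-0.36) did not follow it. Among 9136 other genes at 5 CPM or more in both tables, those most like the mean profile of the 10 over the 17 libraries were Ociad2 (r = 0.89), Hps5 (0.88), Ppl (0.86), Pygl (0.85) and Gsap (0.85). Centring was by table and not by group, so differences between groups enter these values. Within the HFD libraries alone their r ran from 0.60 (Pygl) to 0.93 (Ociad2), and within the WD libraries from 0.83 (Gsap) to 0.96 (Pygl). Pygl is the liver glycogen phosphorylase.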

How the data were processed

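Total RNA from 14 livers and 3 tumors was depleted of ribosomal RNA and sequenced as single reads. The authors deposited estimated counts per gene, with 1 table for HFD and 1 for WD, made by an expectation-maximisation quantification in which reads that fit several features are split between them. The submitters' processing notes name STAR, Partek and mm9, whereas the study's methods name TopHat2 and cuffdiff, and gene starts in the tables match GRCm38 annotation rather than mm9. The library kit named is a small RNA kit, and neither source states whether strand was used. Counts of Acaca and Me1 were most often off a whole number by 0.05 or more. This held in 7 of 8 and 8 of 8 libraries on HFD and in 8 of 9 each on WD. It also held for Fasn in 4 of 9 libraries on WD and Scd1 in 4 of 8 on HFD. The number of shared reads and the error from splitting them were not measured.

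The estimated counts were rounded and fitted in edgeR 4.0.16 (R 4.3.3) with TMM scaling, filterByExpr and the quasi-likelihood F-test, with Benjamini-Hochberg adjustment over all genes tested (13460 on HFD, 17829 on WD, 15850 for the difference between diets). The 3 WD groups shared 1 fit. A call is an adjusted p under 0.05. SE was taken as the log2 fold change over the root of F. DESeq2 1.42.0, limma-voom (limma 3.58.1), other scalings and filters, a length and GC offset, a replicate block and fits without each library were alternatives. Scripts were tested on simulated data. The ratios within libraries and the choice of windows to print were added after the values were seen. The genes, role lists, marker lists and motifs were chosen with earlier results of these data known. All 10 genes are named. Other pathway genes past the threshold are named by the 3 largest rises and falls of each role group. Pathway, fasting, clock and cell marker lists were described by counts and summed levels. Lengths, coordinates and exons are from GENCODE M21 and promoter sequence is from RefSeq, both on GRCm38. P-values set a difference between groups against the spread between these samples. Every gene of the 10 had 72 or more counts in every library, and counting error is small beside the wider spreads. It is not small beside the narrowest, such as Fasn in WT liver on HFD (SD 2.86 at a mean of 67.8 CPM). Acaca in tumor (SD 1.77 at a mean of 185 CPM) is another.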

Additional observations from a re-analysis of the deposited data

Results flagged for a closer look

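Mlxipl in WT liver on HFD had 1 library far from the others. Replicate 2 read 147 CPM where the other 3 read 112 to 113, a gap of 0.950 of the group's whole range, beyond Dixon's limit for 4 samples. Of the 20 groups of 4 examined (10 genes in WT and in N-LKO liver on HFD) this was the only one past the limit, and chance gives about 1 in 20.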

How the results depend on the processing

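The number of lipogenesis genes called was recomputed under each alternative. Between genotypes it stayed at 0 on WD and for the difference between diets under all of them, and on HFD it was 0 apart from 0 to 1 when single libraries were left out (Scd1 higher without WT replicate 1, Mlxipl lower without N-LKO replicate 2). For tumor against N-LKO liver the 0 became 3 with DESeq2, and 0 to 5 without single libraries, 5 being without tumor 1, where the calls over all genes rose from 89 to 2193. For tumor against WT liver the 4 became 2 with limma-voom and 1 when only the 2 groups were fitted, and it was 1 to 7 without single libraries: 7 without tumor 1, 1 without WT replicate 2 or 3, and 2 without tumor 2, tumor 3, N-LKO replicate 1 or N-LKO replicate 3. Other scalings, filters, DESeq2 and the length and GC offset gave 3 to 6 there. The replicate block gave 2 of the 10 for tumor against WT liver and 0 in the other comparisons, with 494 genes called on HFD in place of 652. Same-numbered samples did not deviate together (r from -0.12 to 0.11 over all comparisons). In no comparison did every sample correlate best with its own number. This concerns the replicate numbers of the labels alone. The headers of the count columns number the samples differently. By them, on WD, N-LKO replicate 1 shares a number with tumor 1 (r = 0.10), and N-LKO replicate 3 with tumor 2 (r = 0.079). No block on the header numbers was fitted, and whether they stand for mice is not stated. The sources do not say which tumor and which N-LKO liver, if any, came from the same mouse, so pairing by mouse was not tested. No called value changed sign. Over all genes, DESeq2 called 999 on HFD, 99 on WD between genotypes, 1021 for tumor against N-LKO liver and 923 for the difference between diets, where edgeR called 652, 0, 89 and 257. The length and GC offset gave 289 on HFD and 69 for the difference, of which 13 were higher in place of 93 of 257. For tumor against N-LKO liver the 89 became 18 with limma-voom, 36 with the replicate block, 58 with a minimum mean of 1 CPM and 29 with only the 2 groups fitted. Only the 2 groups gave 705 for tumor against WT liver and 6 between genotypes on WD, and the replicate block 0 for the difference. Upper-quartile scaling took the median of all genes from 0.04 to 0.11 for tumor against WT liver, where 1666 of 2605 called genes were higher, in place of 1440 of 2653, and under it Acly was called and Acacb was not. Leaving out single libraries moved the calls over all genes most: to 3 (without N-LKO replicate 2) to 2193 (without tumor 1) for tumor against N-LKO liver, 569 (without WT replicate 2) to 3819 (without tumor 1) for tumor against WT liver, 179 (without WT replicate 2) to 597 (without WT replicate 1) on HFD, 0 to 1 between genotypes on WD, and 22 (without N-LKO replicate 3 on WD) to 330 (without WT replicate 3 on WD) for the difference. The causes were not tested.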
